A study of Citrus x clementina and Citrus japonica with 6 samples.

Results

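Phenylalanine ammonia-lyase removes ammonia from the amino acid phenylalanine and releases cinnamic acid. It is the first committed enzyme of the phenylpropanoid pathway, whose products include lignin, flavonoids, coumarins and, by one of its known routes, salicylic acid. Plants usually carry a small family of genes for it, and in citrus fruit the pathway feeds flavanone glycosides of the peel and pulp, pigments, and the lignin of vascular tissue and seed coats. The family was taken from the deposited expression table as every gene model whose first KEGG orthology name was phenylalanine ammonia-lyase, which gave 6 of 30139 models. No other row named the enzyme in any annotation column.

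The samples were fruit RNA-seq libraries of kumquat (Fortunella japonica, a small-fruited citrus relative; the labels use the species name Citrus japonica) and of Clementine mandarin (Citrus x clementina), with 3 libraries per species and no treatment. Each library pooled fruit of 5 stages. The first 3 were picked 15, 30 and 45 days after flowering in both species. The later stages were picked at 80 and 120 days in kumquat and at 100 and 180 days in clementine. Species and the age of the later fruit therefore differed together and cannot be told apart. Kumquat libraries were recognised by their cultivar label, since their stage label speaks of Clementine mandarin fruit. A number of 3 plants is mentioned as the source, but no label links a plant with a library, so p-values measure the spread between these libraries, which may be technical. Values are FPKM, fragments scaled to the length of the gene model and to the size of the library, and the models are named after the clementine genome. Whether kumquat reads were lost where kumquat differs from these models in sequence was not tested, and this holds for every comparison below. FPKM summed to between 691560 and 707892 per library, and the number of fragments is unknown.

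All 6 models also carried the same gene ontology entries: intracellular part, carbon-nitrogen lyase activity and L-phenylalanine metabolic process. The entry carbon-nitrogen lyase activity alone stood on these 6 models and on no other model, and together with further terms it stood on 3 more. L-phenylalanine metabolic process stood on 13 models. The other 7 were 6 models named arogenate/prephenate dehydratase, which makes phenylalanine in plants, and 1 named homogentisate 1,2-dioxygenase, an enzyme of tyrosine breakdown. Each of the 6 had a best protein match that no other model shared. For 5 of them it was a clementine protein, and for Ciclev10010874m it was a sweet orange (Citrus sinensis) protein. RefSeq's gene table for the clementine assembly held the matched protein of 4 models. These are Ciclev10011175m (LOC18038722), Ciclev10027913m (LOC18033836), Ciclev10030821m (LOC18043571) and Ciclev10027912m (LOC18034906). That table lists Ciclev10027913m and Ciclev10027912m with 1 gene between them, without giving a chromosome.

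Measured as FPKM on these models, phenylalanine ammonia-lyase messenger RNA was much lower in fruit of kumquat than in fruit of clementine. The 6 models together stood at 245.37, 225.8 and 235.67 FPKM in the kumquat libraries, against 1138, 1089 and 1086 FPKM in the clementine libraries. The groups were far apart, and the libraries within each species lay close together. The means of the sum were 236 ± 9.79 FPKM in kumquat and 1104 ± 29.1 FPKM in clementine (SD, n = 3 each), 4.69-fold lower in kumquat. The sum made up 0.0321 to 0.0355% of all FPKM in the kumquat libraries and 0.155 to 0.164% in the clementine libraries. In bulk RNA of fruit, fewer cells that express a gene and less RNA per cell cannot be told apart.

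Every member was lower in kumquat in the test of single models. All 6 were called lower and none higher, at a Benjamini-Hochberg adjusted p under 0.05 over all models in limma, a linear model with moderated variances. Of these, 5 reached the filter of 1 FPKM in 3 libraries in each species, while Ciclev10010874m reached it in clementine alone and so had to differ. The background is high in this comparison of species: of 22050 tested models, 57.1% were called in either direction, 27.1% lower and 29.9% higher in kumquat. Of the 5 members that reached the filter in both species, 3 were called and at least 2-fold lower, against 12.1% of all tested models, and Ciclev10010874m brought this count to 4. The median log2 change, kumquat minus clementine, was -1.95 over these 5 members and 0.04 over all tested models. All tested models take in those that passed the filter through 1 species alone. No share or median was taken over models that passed it in both. Changes were taken as differences of log2(FPKM + 1), and for models at low levels they are smaller than the log2 ratio of the FPKM values themselves.

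Ciclev10011175m was the main phenylalanine ammonia-lyase transcript of both fruits. It stood at 163.3, 146.31 and 157 FPKM in the kumquat libraries, against 926.2, 887.9 and 885.2 FPKM in the clementine libraries. All kumquat libraries were low, all clementine libraries high, and the groups did not overlap. In clementine it was among the most abundant transcripts of the table, at rank 45 to 53 of all models in a library, while in kumquat it ranked 645 to 776. Its level averaged 156 ± 8.59 FPKM in kumquat and 900 ± 23.0 FPKM in clementine (SD, n = 3 each), 5.78-fold lower in kumquat. The log2 change was -2.53 (SE 0.0570, 95% interval -2.66 to -2.39, limma adjusted p = 1.48e-07). This model alone made up 85.7% of the difference in the family sum.

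**Figure D1:**
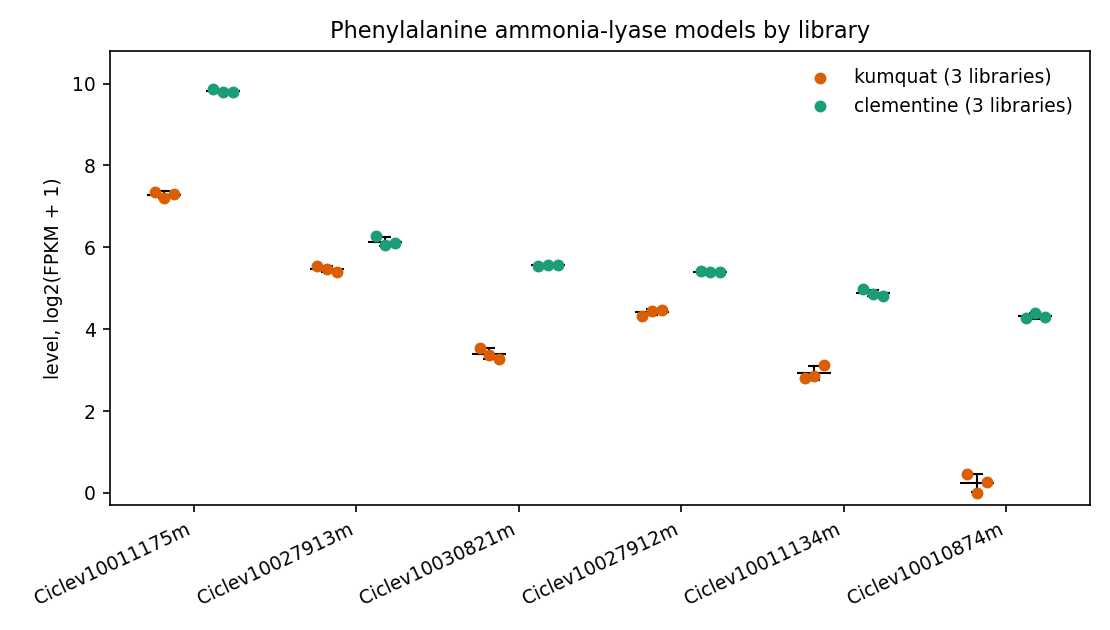
Level of each phenylalanine ammonia-lyase model as log2(FPKM + 1), with kumquat libraries in orange to the left of clementine libraries in green. Points are single libraries (3 per species), and black bars give mean and SD. For all 6 models the kumquat points lie below the clementine points, by the least in Ciclev10027913m and by the most in Ciclev10010874m.

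The next most abundant member, Ciclev10027913m, differed least between the fruits. It stood at 45.86, 43.11 and 40.91 FPKM in the kumquat libraries, against 75.87, 65.27 and 67.57 FPKM in the clementine libraries. The groups lay close to each other without overlap. The means were 43.3 ± 2.48 FPKM in kumquat and 69.6 ± 5.58 FPKM in clementine (SD, n = 3 each), 1.61-fold lower in kumquat, with a log2 change of -0.67 (95% interval -0.85 to -0.49, limma adjusted p = 0.000230). Of all tested models, 18.8% had a larger fall.

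Ciclev10027912m, the model listed near it, also fell by a modest amount. It stood at 19.07, 20.8 and 21.07 FPKM in the kumquat libraries, against 41.76, 41.11 and 41.35 FPKM in the clementine libraries. The clementine values were almost the same in the 3 libraries, and every kumquat library was far below them. The fall was 2.04-fold in the mean FPKM, and the log2 change was -0.99 (95% interval -1.15 to -0.84, limma adjusted p = 1.5e-05). Its change thus lay just short of the 2-fold limit on the log2(FPKM + 1) scale and just past it in the means. In settings that moved it past the limit, 5 members instead of 4 counted as at least 2-fold lower, Ciclev10010874m included.

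A further pair of members, Ciclev10030821m and Ciclev10011134m, showed larger falls of like size. Ciclev10030821m stood at 10.73, 9.34 and 8.71 FPKM in the kumquat libraries, against 45.46, 46.6 and 46.22 FPKM in the clementine libraries, and all kumquat libraries were far below all clementine libraries. Its mean was 4.80-fold lower in kumquat (log2 change -2.16, 95% interval -2.36 to -1.95, limma adjusted p = 1.5e-06). Ciclev10011134m stood at 6.04, 6.24 and 7.78 FPKM in the kumquat libraries, against 30.35, 28.13 and 27.26 FPKM in the clementine libraries. Here too the groups were well apart, and the third kumquat library was the highest of its group. The mean was 4.27-fold lower in kumquat (log2 change -1.95, 95% interval -2.21 to -1.69, limma adjusted p = 7.42e-06).

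Ciclev10010874m was seen almost only in clementine. It was listed at 0.37, 0 and 0.2 FPKM in the kumquat libraries, against 18.29, 20.01 and 18.56 FPKM in the clementine libraries. All kumquat libraries were at or near 0, and all clementine libraries were clearly above them, though below every other member. It passed the filter of 1 FPKM in 3 libraries through the clementine libraries alone. The log2 change was -4.08 (SE 0.169, limma adjusted p = 1.58e-06), and -6.30 when 0.1 instead of 1 FPKM was added before taking logs. The size of this change depends on the constant added, and no fold is given since a value of 0 can be a failed estimate. Its protein match differs from the rest of the family, as given above. Whether reads of this model could be shared with close family members, or missed in kumquat through differences in sequence, was not tested.

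**Figure D2:**
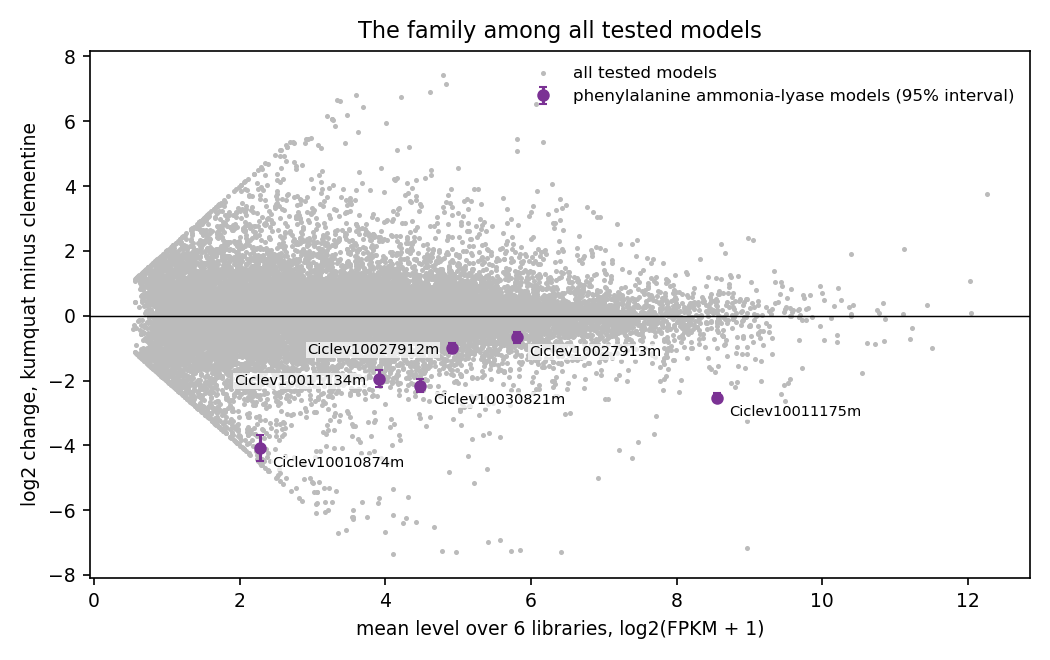
Log2 change, kumquat minus clementine, against the mean level over 6 libraries as log2(FPKM + 1). Grey points are all 22050 tested models, and purple points with 95% intervals are the 6 phenylalanine ammonia-lyase models. All 6 lie below the zero line, and Ciclev10011175m stands at the high end of the level axis with a change of -2.53.

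Placed among all tested models by size of change, the members ranged widely. A larger fall than that of the member was seen in 2.07% of tested models for Ciclev10011175m, in 3.18% for Ciclev10030821m and in 4.01% for Ciclev10011134m. For Ciclev10027912m the share was 12.5%. No such share is given for Ciclev10010874m, since the size of its change depends on the constant added. In all 6 members, Ciclev10010874m again included, the kumquat libraries lay below all clementine libraries, a pattern found in 30.4% of tested models. Among KEGG names carried first by at least 5 tested models, 950 in all, 4 had every model called lower in kumquat, phenylalanine ammonia-lyase among them.

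The spread between libraries was small next to these differences. The coefficient of variation in clementine was between 0.794% for Ciclev10027912m and 8.01% for Ciclev10027913m. In kumquat it was between 5.34% for Ciclev10027912m and 14.2% for Ciclev10011134m, leaving out Ciclev10010874m, which was at or near 0. Within each species no 2 neighbours in the order of levels had overlapping libraries. The order in kumquat was Ciclev10011175m, Ciclev10027913m, Ciclev10027912m, Ciclev10030821m, Ciclev10011134m and Ciclev10010874m. In clementine it was the same except that Ciclev10030821m stood above Ciclev10027912m.

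The falls were unequal, and the 95% intervals of the log2 change of Ciclev10027913m and of Ciclev10011175m, given above, lie far apart. The make-up of the family sum differed with them. Ciclev10011175m held 66.0 ± 1.03% of the family sum in kumquat and 81.5 ± 0.0718% in clementine (SD, n = 3 each). Ciclev10027913m held 18.4 ± 0.907% in kumquat and 6.29 ± 0.343% in clementine. Ciclev10027912m held 8.64 ± 0.765% in kumquat and 3.75 ± 0.0719% in clementine. These shares are ratios within a library and do not depend on how the libraries were scaled.

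The other shares moved little or were small. Ciclev10030821m held 4.07 ± 0.344% in kumquat and 4.18 ± 0.158% in clementine, and Ciclev10011134m held 2.84 ± 0.425% in kumquat and 2.59 ± 0.0787% in clementine. Ciclev10010874m held 0 to 0.151% in the kumquat libraries and 1.61 to 1.84% in the clementine libraries. With the main model left out, the other 5 together stood at 80.1 ± 1.77 FPKM in kumquat and 205 ± 6.17 FPKM in clementine, 2.56-fold lower in kumquat.

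**Figure D3:**
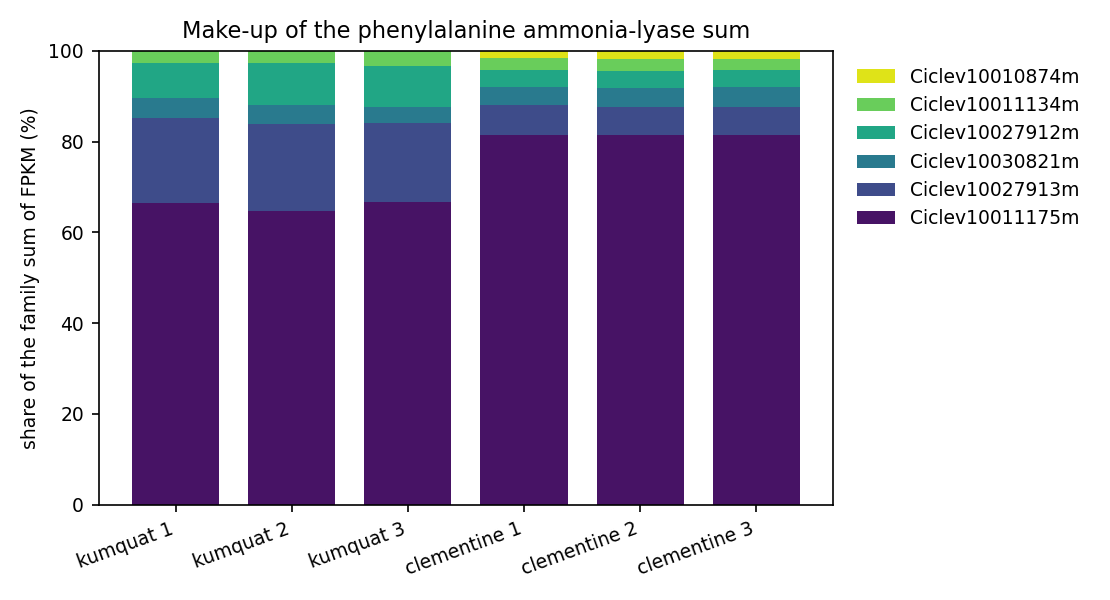
Share of each phenylalanine ammonia-lyase model in the family sum of FPKM, in percent, for each library, with the 3 kumquat libraries left of the 3 clementine libraries. Ciclev10011175m fills about 66.0% of the kumquat bars and 81.5% of the clementine bars, and the band of Ciclev10027913m is wider in kumquat.

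Ratios between members were compared library by library for all 15 pairs of models, tested as differences of log2(FPKM + 1). In this two-sided exact permutation test, the smallest p that 3 libraries against 3 allow is 0.1, so no pair could pass a threshold of 0.05 (smallest p adjusted over the pairs 0.107). The plain ratio of FPKM of Ciclev10011175m to Ciclev10027913m was 3.56, 3.39 and 3.84 in the kumquat libraries, against 12.2, 13.6 and 13.1 in the clementine libraries. The main model thus exceeded the next one by far more in clementine. The ratio of Ciclev10030821m to Ciclev10027912m was 0.563, 0.449 and 0.413 in the kumquat libraries, against 1.09, 1.13 and 1.12 in the clementine libraries, which is the change of order given above.

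Enzymes before and after the family along the route from the shikimate pathway to the product branches were described by lists of KEGG names. Over these lists, 119 of 158 models were tested, of which 44 were called lower in kumquat, 37 higher and 38 neither. That is 2 directions in nearly equal number, and the median log2 change was -0.06. Over all tested models, 27.1% were called lower and 29.9% higher. The counts of each list below are to be read beside these shares. Some listed models passed the filter through 1 species alone, so a difference was built in. The models named below as most abundant are those with the highest mean over the 6 libraries of both species. Where another model stood first in 1 species, it is given too, chosen after its values were seen.

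The shikimate pathway makes chorismate, the common precursor of the aromatic amino acids. Of its 21 tested models, 8 were lower in kumquat, 3 higher and 10 not called, with a median log2 change of -0.14. Ciclev10019734m, annotated as EPSP synthase (the target of glyphosate), was lower at 66.4 ± 0.277 FPKM in kumquat and 130 ± 7.35 FPKM in clementine (log2 change -0.96, limma adjusted p = 7.66e-06). The 5 models of DAHP synthase, the entry enzyme, summed to 523 ± 8.52 FPKM in kumquat and 768 ± 12.6 FPKM in clementine. Of these, 3 were called lower, 1 higher and 1 neither. Ciclev10025342m, singled out after its values were seen, averaged 31.9 FPKM in kumquat and 261 FPKM in clementine. Its log2 change of -2.998 was a larger fall than that of the main phenylalanine ammonia-lyase model. Ciclev10028255m was higher, at 68.0 FPKM in kumquat and 16.5 FPKM in clementine. The most abundant DAHP synthase model in both species was Ciclev10000835m. It fell slightly, with 430.16, 409.36 and 426.22 FPKM in the kumquat libraries, against 485.5, 486.9 and 474.2 FPKM in the clementine libraries (log2 change -0.19, limma adjusted p = 0.0101). Ciclev10025711m, the only model of 3-dehydroquinate synthase, was lower at 57.8 ± 4.01 FPKM in kumquat and 84.3 ± 0.257 FPKM in clementine, and Ciclev10026159m, a shikimate kinase, at 11.5 ± 0.922 FPKM in kumquat and 16.5 ± 2.36 FPKM in clementine. Not called were Ciclev10004711m, of the dehydratase and dehydrogenase step, at 53.8 ± 2.85 FPKM in kumquat and 59.5 ± 3.68 FPKM in clementine, and the only chorismate synthase model, Ciclev10031547m, at 71.3 ± 1.88 FPKM in kumquat and 68.7 ± 5.38 FPKM in clementine. The first model of the dehydratase and dehydrogenase step in clementine, Ciclev10009141m, was lower at 38.2 ± 1.09 FPKM in kumquat and 61.2 ± 2.00 FPKM in clementine.

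Phenylalanine itself is made from chorismate by chorismate mutase, prephenate aminotransferase and arogenate dehydratase. Of the 14 tested models of these enzymes, 5 were lower in kumquat, 4 higher and 5 not called (median log2 change 0.02). Ciclev10028359m, the most abundant arogenate/prephenate dehydratase, was lower at 57.7 ± 9.22 FPKM in kumquat and 126 ± 10.2 FPKM in clementine (log2 change -1.13, limma adjusted p = 0.000130). The 11 models of this enzyme summed to 138 ± 12.9 FPKM in kumquat and 174 ± 9.33 FPKM in clementine. Chorismate mutase went the other way. Its 4 models summed to 106 ± 7.50 FPKM in kumquat and 58.9 ± 8.39 FPKM in clementine, and the first of them in kumquat, Ciclev10009270m, was higher at 49.4 ± 3.75 FPKM in kumquat and 6.31 ± 3.06 FPKM in clementine (log2 change 2.86, limma adjusted p = 7.28e-05). Not called were Ciclev10012189m, the chorismate mutase with the highest mean over both species, at 37.0 ± 4.61 FPKM in kumquat and 35.1 ± 7.38 FPKM in clementine, and Ciclev10001202m, a prephenate aminotransferase, at 60.4 ± 1.56 FPKM in kumquat and 62.1 ± 2.03 FPKM in clementine. Another prephenate aminotransferase, Ciclev10025279m, level with it in clementine, was lower at 39.0 ± 0.606 FPKM in kumquat and 62.7 ± 4.54 FPKM in clementine.

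Other enzymes use chorismate or arogenate for tryptophan, tyrosine or isochorismate, a second precursor of salicylic acid. Tyrosine aminotransferase, which acts on tyrosine and not on chorismate or arogenate, was listed with them. Of 29 tested models in this list, 10 were lower in kumquat, 7 higher and 12 not called (median log2 change -0.13). Tyrosine aminotransferase made up 10 of the tested models, with 5 lower, 2 higher and 3 not called. Ciclev10026257m, annotated as isochorismate synthase and the most abundant model of that name in clementine and over both species, fell by a log2 change close to that of the main phenylalanine ammonia-lyase model. It stood at 19.55, 12.64 and 12.48 FPKM in the kumquat libraries, against 88.7, 91.24 and 87.01 FPKM in the clementine libraries (log2 change -2.53, limma adjusted p = 1.08e-05). In kumquat the first model of that name was Ciclev10024623m, at 17.4 ± 1.26 FPKM in kumquat and 23.8 ± 0.333 FPKM in clementine (log2 change -0.43). The KEGG name covers several enzymes of the route to menaquinone and phylloquinone. The most abundant models of the other 3 enzymes were higher in kumquat. Ciclev10008448m, a tyrosine aminotransferase, stood at 74.2 ± 5.26 FPKM in kumquat and 34.2 ± 2.52 FPKM in clementine (log2 change 1.10). Ciclev10028065m, an anthranilate synthase, stood at 44.8 ± 2.06 FPKM in kumquat and 30.7 ± 0.486 FPKM in clementine (log2 change 0.53), while the first model of this enzyme in clementine, Ciclev10016176m, was lower at 26.2 ± 1.48 FPKM in kumquat and 32.5 ± 1.36 FPKM in clementine. Ciclev10007630m, an arogenate dehydrogenase, stood at 30.0 ± 4.26 FPKM in kumquat and 20.7 ± 0.740 FPKM in clementine (log2 change 0.51, limma adjusted p = 0.00459).

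**Figure D4:**
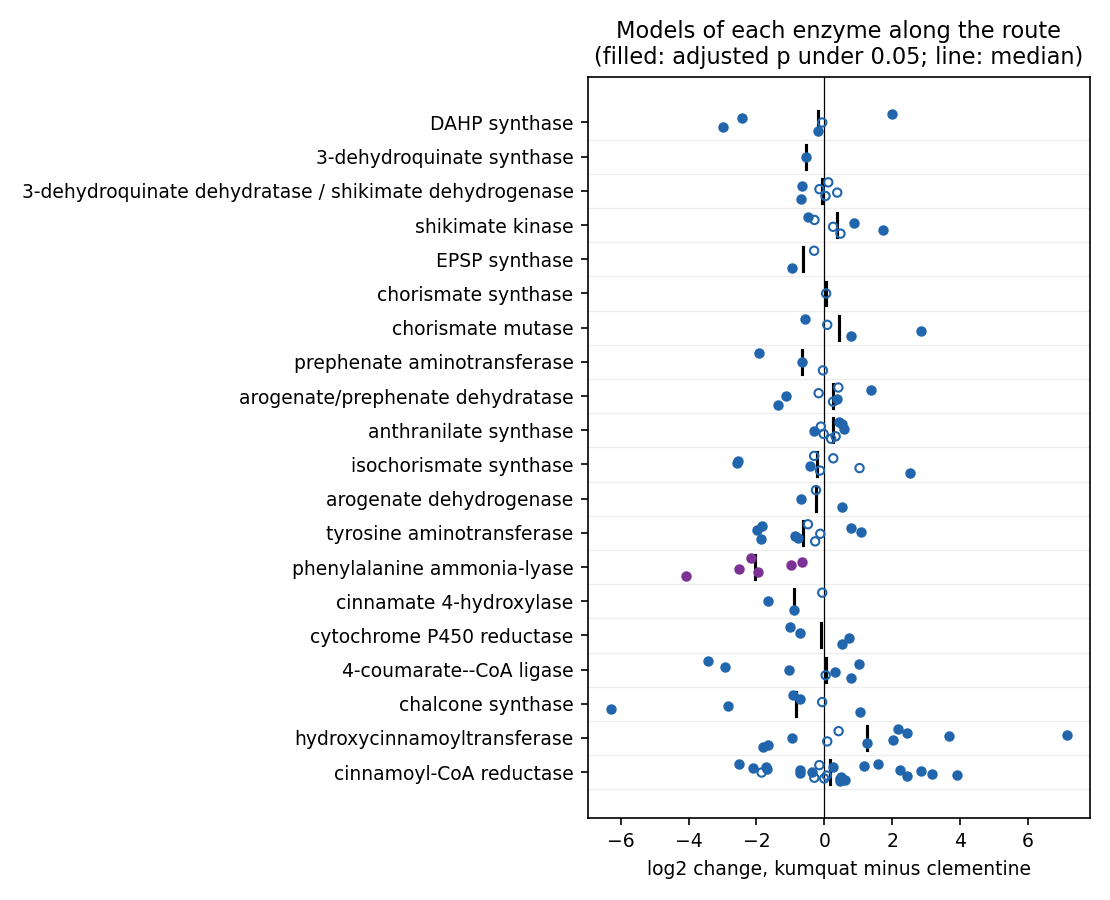
Log2 change, kumquat minus clementine, of each tested model, by enzyme along the route from the shikimate pathway (top) to the product branches (bottom). Filled points have a limma adjusted p under 0.05, open points do not, and black lines are medians. The 6 phenylalanine ammonia-lyase models (purple) all lie left of zero with a median of -2.05, Ciclev10010874m included. Most other enzymes have models on both sides.

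Cinnamic acid is next hydroxylated by cinnamate 4-hydroxylase, a cytochrome P450 that takes electrons from cytochrome P450 reductase, and is then activated by 4-coumarate--CoA ligase. Of 14 tested models of these 3 enzymes, 7 were lower in kumquat, 5 higher and 2 not called (median log2 change -0.39). Ciclev10000921m, the main cinnamate 4-hydroxylase, stood at 432.04, 422.19 and 426.78 FPKM in the kumquat libraries, against 832.4, 788 and 768.5 FPKM in the clementine libraries. It fell in kumquat without overlap, though by less than the main lyase model (log2 change -0.90, SE 0.0518, limma adjusted p = 7.42e-06). Ciclev10019532m, the main 4-coumarate--CoA ligase, was slightly higher at 275 ± 5.60 FPKM in kumquat and 222 ± 1.55 FPKM in clementine (log2 change 0.31, limma adjusted p = 0.000785). Of the 7 tested ligase models, 3 were called lower, each at least 2-fold, 3 higher and 1 neither. All 12 ligase models summed to 347 ± 3.02 FPKM in kumquat and 371 ± 4.68 FPKM in clementine, slightly lower in kumquat. Among cytochrome P450 reductases, the first model in kumquat, Ciclev10000469m, was higher at 91.1 ± 2.36 FPKM in kumquat and 63.5 ± 1.87 FPKM in clementine (log2 change 0.51). The first in clementine, Ciclev10007535m, was lower at 50.9 ± 1.10 FPKM in kumquat and 84.3 ± 2.83 FPKM in clementine (log2 change -0.72). The 5 models of this enzyme summed to 183 ± 3.54 FPKM in kumquat and 214 ± 4.16 FPKM in clementine.

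Set within each library against neighbouring enzymes of the route, the family stood lower in kumquat. The family sum over the cinnamate 4-hydroxylase sum was 0.557, 0.522 and 0.543 in the kumquat libraries, against 1.33, 1.35 and 1.38 in the clementine libraries. The lyase thus stood below the hydroxylase in every kumquat library and above it in every clementine library. The family sum over the 4-coumarate--CoA ligase sum was 0.680 ± 0.0223 in kumquat and 2.98 ± 0.0440 in clementine (SD, n = 3 each). Against the sum of arogenate/prephenate dehydratase, which comes before the family on the route, it was 1.71 ± 0.0928 in kumquat and 6.37 ± 0.170 in clementine.

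The first enzymes of the product branches went both ways. Of 41 tested models, 14 were lower in kumquat, 18 higher and 9 not called (median log2 change 0.09). Ciclev10015535m, the main chalcone synthase, which opens the flavonoid branch, was lower at 1829 ± 86.7 FPKM in kumquat and 3012 ± 42.7 FPKM in clementine (log2 change -0.72, limma adjusted p = 6.46e-05). Cinnamoyl-CoA reductase opens the branch to lignin alcohols. Its most abundant model in clementine and over both species, Ciclev10031443m, was lower at 88.8 ± 6.72 FPKM in kumquat and 287 ± 26.1 FPKM in clementine. In kumquat 7 models stood above it, the first of them Ciclev10015901m, which was higher at 144 ± 10.6 FPKM in kumquat and 8.56 ± 0.0503 FPKM in clementine (log2 change 3.92). The sum of all 28 models of that enzyme was 1136 ± 5.33 FPKM in kumquat and 1076 ± 31.0 FPKM in clementine.

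Hydroxycinnamoyltransferases, which make shikimate esters on the way to lignin and also include related acyltransferases, had 6 of 11 tested models higher and 3 lower. The most abundant in kumquat was Ciclev10028504m, at 341 ± 11.4 FPKM in kumquat and 1.41 ± 0.224 FPKM in clementine. In clementine it was Ciclev10015146m, not called, at 91.4 ± 3.64 FPKM in kumquat and 86.1 ± 6.13 FPKM in clementine. The sum over the 21 models was 579 ± 17.2 FPKM in kumquat and 167 ± 5.50 FPKM in clementine. Without Ciclev10028504m it was 239 ± 9.09 FPKM in kumquat and 165 ± 5.29 FPKM in clementine. The lyases of other reactions that belong to the same wider set in the list were single models, argininosuccinate lyase at 40.1 ± 2.52 FPKM in kumquat and 40.7 ± 0.0819 FPKM in clementine (not called) and adenylosuccinate lyase at 35.5 ± 2.11 FPKM in kumquat and 26.9 ± 0.574 FPKM in clementine (called higher). No model was named histidine, tyrosine or aspartate ammonia-lyase.

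Enzymes listed as background for tissues that fruit can hold moved in part with the family, and their part in its fall was not tested. Cellulose synthase A, listed for woody and vascular tissue, had 20 of 34 tested models lower and 4 higher. Its 42 models summed to 843 to 914 FPKM in the kumquat libraries and 1091 to 1155 FPKM in the clementine libraries. The KEGG name alone does not tell models of that tissue from those of other growing cells. Laccase, an oxidase of lignin precursors, had 10 of 16 tested models lower and 3 higher. Its 26 models nonetheless summed to 392 to 479 FPKM in kumquat and 134 to 160 FPKM in clementine, since Ciclev10011377m alone stood at 338 to 418 FPKM in kumquat and 0.5 to 1.92 FPKM in clementine. Without that model the laccase sum was 53.3 to 61.1 FPKM in kumquat and 133 to 159 FPKM in clementine. For green tissue, light-harvesting chlorophyll proteins had 11 of 23 tested models lower and 3 higher, with sums of 6459 to 7093 FPKM over 30 models in kumquat and 7101 to 7706 FPKM in clementine. Among all tested models, 27.1% were called lower and 29.9% higher. The marker counts take in models that passed the filter through 1 species alone, so a difference was built in. Among cellulose synthase A models, Ciclev10007653m averaged 0 FPKM in kumquat and 1.98 FPKM in clementine. Ciclev10027629m, called higher, averaged 2.28 FPKM in kumquat and 0 FPKM in clementine. None of these marker models was at 0 in all libraries. For seed, 0 models carried the names oleosin, vicilin or 11S globulin first, so seed content was not measured in this way.

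Among 8637 tested models with a KEGG name and a mean of at least 10 FPKM, those with a profile most like the family sum over the 6 libraries were ranked by the root mean square difference of centred log2(FPKM + 1). The first was Ciclev10026344m, annotated as caffeoyl-CoA O-methyltransferase, which methylates lignin precursors, with a difference of 0.0412. It stood at 207 ± 5.60 FPKM in kumquat and 950 ± 17.1 FPKM in clementine. The next were Ciclev10024992m (named plasminogen activator inhibitor 1 RNA-binding protein, 0.0609), Ciclev10004832m (alpha-L-fucosidase, 0.0653), Ciclev10020212m (COMPASS component SWD2, 0.0822) and Ciclev10008452m (small subunit ribosomal protein S3Ae, 0.0865). Some of these are names of animal or yeast proteins carried over by annotation. The likeness rests mainly on the difference between the species and is a description.

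The same measure gave the model most like each member with a mean of at least 10 FPKM, a limit that Ciclev10010874m did not reach. For Ciclev10011175m it was Ciclev10020247m, also named COMPASS component SWD2, with a difference of 0.0487. For Ciclev10027913m it was Ciclev10021340m, named 3,5-epimerase/4-reductase, with 0.0286. For Ciclev10030821m it was Ciclev10018963m, named MYB-related transcription factor LHY, with 0.0535. For Ciclev10027912m it was Ciclev10007537m, a cytochrome P450 reductase of the list above, with 0.0340, at 28.9 ± 1.89 FPKM in kumquat and 59.2 ± 2.04 FPKM in clementine. For Ciclev10011134m it was Ciclev10007280m, named kinesin family member 15, with 0.0760.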

How the data were processed

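Messenger RNA was measured in 6 fruit libraries, 3 of kumquat and 3 of Clementine mandarin. Per the labels' protocols, total RNA was taken with TRIzol, treated with DNase I and sequenced on an Illumina instrument. HISAT, StringTie and DESeq2 are listed in the submitters' processing notes without version or role. No coordinates are printed, because the build behind the gene models is not given in the sources used here. Per the file headers, the authors deposited FPKM per gene model, 1 column per library. FPKM are not counts, the depth is unknown, and no counting interval can be given.

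The test took the 22050 models that reached 1 FPKM in 3 or more libraries. Their log2(FPKM + 1) was fitted with limma 3.58.1 (R 4.3.3), the prior variance following the mean level, as kumquat minus clementine and with no covariate. Adjusted p-values are Benjamini-Hochberg over all tested models, two-sided, with a threshold of 0.05. The fit was tested on simulated data with far fewer changed models than were called here. That test gives no error rate for this comparison. Sums, shares and ratios of FPKM were taken per library and given no p, except the ratios between members, which had an exact permutation test. Enzyme lists matched the start of the first KEGG name. Named models were every family member, the most alike models, and the tested model of each listed enzyme with the highest mean over both species. Any other model that stood first in 1 species, and further DAHP synthase models, were added after their values were seen. Members and lists were chosen with earlier results of these data known. Alternatives were another pseudocount, filter or library scaling, a replicate block, leaving out single libraries, another member rule and models summed by protein match.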

Additional observations from a re-analysis of the deposited data

How the results depend on the processing

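All 180 values recomputed under the alternatives kept their direction and their side of the threshold, or stayed within the replicate spread (or, for counts, within 1.5 times). They covered the 6 members, their counts, sum and shares, the counts over the pathway lists and the share of all models called lower. Not all of these values could change. Another filter or the replicate block leaves the log2 change of a model as it is and can alter only its SE and p-value. Each member had a protein match of its own, so summing by protein match returned the same 6 members. Under every setting 6 members were called lower and 0 higher, and 4 or 5 were at least 2-fold lower. Ciclev10010874m, which passed the main filter through clementine alone, is among those called lower. The share of all models called lower lay between 20.7% without the filter and 30.0% with a filter of 5 FPKM. The share at least 2-fold lower, 12.1%, is given for the main setting only. There were 5 members at least 2-fold lower with a pseudocount of 0.1 FPKM, with median scaling and without kumquat replicate 2 or 3, when Ciclev10027912m crossed the limit. With the replicate number as a block, 6 members were called lower, 4 at least 2-fold, and 46 pathway models were lower and 39 higher. Of all tested models, 28.0% were called lower with the block, and the share called higher is given for the main setting only. Same-numbered libraries deviated together only weakly (r = 0.119, 0.0424 and 0.0657 across models), so the numbers were not taken as pairs, although each library correlated best with its own number. With each library left out in turn, the log2 change of the family sum lay between -2.25 and -2.19. Over all alternatives the log2 change lay between -2.56 and -2.48 for Ciclev10011175m and between -0.71 and -0.61 for Ciclev10027913m, and the largest limma adjusted p of any member was 0.00156. For Ciclev10010874m it lay between -6.30 and -3.96, with -6.30 at the pseudocount of 0.1 FPKM. No alternative changes the match of members by name, since no other model carries it. With FPKM alone, depth cannot be used to bound values near 0.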

Other observations

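The other KEGG names with at least 5 tested models, every one of them called lower in kumquat, were singled out after their values were seen. They were aquaporin PIP, the water channels of the plasma membrane, with 12 models and a median log2 change of -1.01, kinesin family member 15, with 5 models and a median of -1.04, and mannan endo-1,4-beta-mannosidase, a wall hydrolase, with 5 models and a median of -0.52. Names with every tested model called higher in kumquat numbered 2. How many models of all these names passed the filter through 1 species alone was not counted. Of the 950 names, 3 had a median log2 change at or below that of phenylalanine ammonia-lyase, which is counted among them. The family median used there was -2.05, over all 6 members with Ciclev10010874m included. The count was not taken for the median of -1.95 over the 5 members that reached the filter in both species.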
